A study of Mus musculus with 6 samples.

Results

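Transcripts of blood and lymphatic vessels were examined in mouse small intestine at E18.5, shortly before birth, in control embryos and in embryos lacking E-cadherin conditionally (cKO). E-cadherin is the adhesion receptor of epithelial adherens junctions and is encoded by Cdh1. The set holds 34 genes chosen by name as endothelial: 29 genes of blood vessels or of endothelium in general, and 5 associated with lymphatic vessels (Flt4, Lyve1, Prox1, Pdpn and Mmrn1). All 34 were found among the 19938 genes measured, each through 1 probe set. Total RNA of small intestinal tissue was hybridised to Affymetrix Mouse Gene 1.0 arrays, 3 for control embryos labelled wildtype and 3 for E-cadherin cKO embryos. The sources used here name neither the driver of recombination nor the deleted part of the gene nor the strain. They also do not say whether the 3 samples of a group came from separate embryos, so p-values reflect only the variation among these samples, some of which may be technical. Values are the authors' processed expression values, read as log2, so that a difference of 1 stands for a 2-fold change. In whole tissue, a change in the number of endothelial cells and a change in RNA per cell cannot be told apart. Lists of values follow the replicate order 1, 2, 3 throughout.

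The targeted gene Cdh1 stood at 9.86, 9.82 and 10.15 on the control arrays and at 9.70, 8.38 and 8.91 on the cKO arrays. Its difference of -0.95 (SE 0.31) missed the threshold of 0.05 (limma adjusted p = 0.088), although the groups did not overlap, and whether its probes lie in the deleted part is not known here. Array pairs correlated at 0.972 to 0.987 within a group and at 0.929 to 0.966 between groups. The array cKO 2 stood apart in its dim genes: 1231 chemosensory receptor genes, taken as a measure of background, lay 0.37 lower there than in the control mean (median -0.37) and between -0.06 and 0.09 on the other arrays. The 95th percentile of these genes, 5.78 to 6.36 over the arrays, is called background here. The defining endothelial genes Pecam1, Cdh5, Tie1 and Kdr lay above it on all 6 arrays, as did Lyve1, Flt4 and Pdpn for lymphatic vessels, whereas Prox1 lay at or below it on 3 arrays.

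Blood vessels are lined by endothelial cells held together by adhesion proteins such as PECAM-1, VE-cadherin and claudin-5. Their growth is steered by secreted ligands, chiefly the VEGF family acting on Flt1, Kdr and Flt4 and the angiopoietins acting on Tek. Lymphatic vessels, which in the villus include the lacteal that takes up dietary fat, arise from venous endothelium under the transcription factor Prox1 and depend on signalling from VEGF-C to Flt4. Transcription factors of the ETS family, with Erg and Fli1 among them, and SOX factors such as Sox17 and Sox18 are known activators of endothelial genes.

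RefSeq promoter windows (build GRCm38.p6) were found for 19 of the 34 genes. The 250 bases before the transcription start are shown for 4 of them: Eng and Pdpn, which passed the test described next, Mmrn1, which lay close to its threshold, and the receptor gene Kdr, which did not pass. Capitals mark matches on either strand to the ETS letters AGGAAG or CGGAAG and to the SOX letters AACAAT, and no match overlapped another in these windows.
Eng (chr2:32646345-32646594, plus strand): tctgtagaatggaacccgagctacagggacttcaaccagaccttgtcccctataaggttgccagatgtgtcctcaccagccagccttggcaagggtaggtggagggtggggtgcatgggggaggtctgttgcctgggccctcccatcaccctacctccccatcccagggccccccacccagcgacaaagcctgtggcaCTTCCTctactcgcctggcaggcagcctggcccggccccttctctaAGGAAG
Pdpn (chr4:143299565-143299814, minus strand): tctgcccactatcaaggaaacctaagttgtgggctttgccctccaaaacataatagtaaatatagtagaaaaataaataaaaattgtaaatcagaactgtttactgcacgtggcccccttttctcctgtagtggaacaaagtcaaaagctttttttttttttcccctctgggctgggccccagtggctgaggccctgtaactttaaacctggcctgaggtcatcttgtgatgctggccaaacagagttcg
Mmrn1 (chr6:60944067-60944316, plus strand): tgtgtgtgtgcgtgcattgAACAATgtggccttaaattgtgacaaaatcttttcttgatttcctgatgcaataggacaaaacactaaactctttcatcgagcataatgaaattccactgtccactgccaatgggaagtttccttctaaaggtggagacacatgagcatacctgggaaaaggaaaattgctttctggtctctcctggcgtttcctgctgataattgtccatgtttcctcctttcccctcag
Kdr (chr5:75978456-75978705, minus strand): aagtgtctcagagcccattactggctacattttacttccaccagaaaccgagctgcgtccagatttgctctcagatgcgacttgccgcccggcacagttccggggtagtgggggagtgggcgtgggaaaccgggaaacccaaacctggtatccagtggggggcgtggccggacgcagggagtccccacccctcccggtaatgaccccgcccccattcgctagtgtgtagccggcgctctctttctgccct
The Eng window holds 2 ETS matches, the nearer ending 1 base before the start, and the Mmrn1 window holds 1 SOX match. The windows of Pdpn and Kdr hold neither set of letters. Over all 32841 promoter windows of this length, 39.2% hold an ETS match and 9.4% a SOX match. Of the 26 windows of the endothelial genes, 11 (42.3%) hold an ETS match and 5 (19.2%) a SOX match. A match is a string of letters and was not tested for binding.

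Most endothelial transcripts, 23 of the 34, differed between cKO and control by less than 0.3 on the log2 scale in either direction. The share of all genes within that range was not computed. Of the 34 genes, 4 rose, namely Pdpn, Ecscr, Mmrn2 and Eng, and 0 fell, by limma with Benjamini-Hochberg adjustment over all genes. An unadjusted limma p under 0.05 was found for 10 of the 34, all with higher cKO means. A similar share of all genes, 5732 of 19938, had such a p in either direction. Over all genes tested, 14.2% were called, 6.81% higher and 7.36% lower. The cKO mean was the higher in 25 of the 34 genes, against 38.5% of all genes. The median difference was 0.18 for the set and -0.09 for all genes. Over all genes the median deviation from the control mean was 0.01, -0.23 and 0 on cKO 1 to 3, so only cKO 2 was low. For the set the median deviations were 0.18, 0.11 and 0.19. Without cKO 2 the median difference was 0.01 for all genes and 0.21 for the set, with 30 of the 34 differences positive. The share of 38.5% and the shares of separate groups given next were not recomputed without cKO 2. In 11 of the 34 genes the 3 cKO values all lay above the 3 control values, a pattern seen in 16% of all genes, and in 0 of them they all lay below, against 19.3%.

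**Figure D1:**
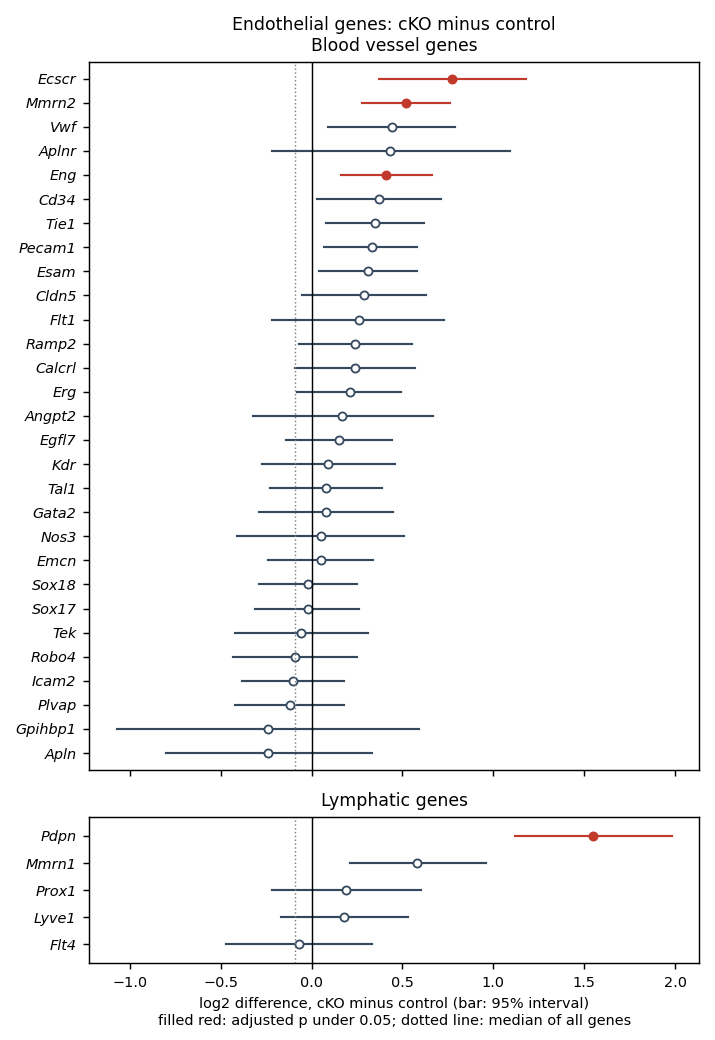
Difference in log2 expression, cKO minus control, for 29 blood vessel genes (upper panel) and 5 lymphatic genes (lower panel), with 95% intervals from limma over 3 arrays per group. Filled red points passed the threshold over all genes, and the dotted line is the median of all genes at -0.09 (0.01 without cKO 2). Pdpn at 1.55 lies apart from the other 33 genes, which lie between -0.24 and 0.77.

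Among genes of endothelial junctions and surface, Pecam1, the adhesion molecule used to identify vessels, was at 8.83, 8.80 and 8.68 on control arrays and at 9.03, 9.18 and 9.08 on cKO arrays. The groups did not overlap, yet the difference of 0.33 (95% interval 0.07 to 0.58) was not called (limma adjusted p = 0.095). Pecam1 passed under 4 alternatives: quantile normalization (0.045), leaving out the dimmer 50% of genes (0.032), an intensity trend (0.048) and array weights (0.033). Cldn5, the main claudin of endothelial tight junctions, was at 8.50, 8.55 and 8.48 in controls and at 8.93, 8.51 and 8.95 in cKO. The cKO 2 value lay within the control range, and the difference of 0.29 (interval -0.05 to 0.63, limma adjusted p = 0.25) became 0.43 (0.042) with that array left out. Cldn5 also passed with array weights (0.019). Esam, an endothelial adhesion molecule, had all cKO arrays above all controls, with a difference of 0.31 (interval 0.04 to 0.58). It did not pass (limma adjusted p = 0.12) but did under 1 alternative, leaving out the dimmer 50% of genes (0.047). Cd34, a sialomucin of capillary endothelium that mesenchymal and blood progenitor cells carry as well, was also above all controls in cKO. Its difference of 0.37 (interval 0.03 to 0.71) did not pass (limma adjusted p = 0.15), nor did it under any of 15 alternatives. Icam2, a leukocyte ligand on resting endothelium, Emcn, a sialomucin of veins and capillaries, and Plvap, the diaphragm protein of fenestrated capillaries such as those of the villus, had overlapping groups with differences of -0.10 (interval -0.38 to 0.18), 0.05 (-0.24 to 0.34) and -0.12 (-0.42 to 0.18).

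Gpihbp1, which anchors lipoprotein lipase in capillaries, was at 8.09, 8.23 and 8.19 in controls and at 8.41, 7.01 and 8.37 in cKO. A single array set this gene apart: cKO 1 and cKO 3 lay above all controls, and cKO 2 more than 1 log2 unit below them. Its difference of -0.24 therefore has a wide interval, -1.07 to 0.59.

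Secreted and matrix-bound endothelial products held 1 of the increases. Mmrn2, a matrix glycoprotein deposited around endothelium, rose from 7.35, 7.39 and 7.49 in controls to 7.95, 7.90 and 7.94 in cKO, with a spread within each group of at most 0.07 (SD, n = 3). The difference was 0.52 (SE 0.10, 1.43-fold, limma adjusted p = 0.017). The adjusted p was 0.064 with control 1 left out, 0.088 with control 2 left out and 0.068 with cKO 3 left out, so the call did not hold in those cases. Vwf, the platelet-tethering factor stored in endothelial granules, stood at 6.52, 6.90 and 6.98 in controls and at 7.16, 7.23 and 7.34 in cKO. Its groups were separate, and the difference of 0.44 (interval 0.09 to 0.79) did not pass (limma adjusted p = 0.096). Vwf passed under 2 alternatives, leaving out the dimmer 50% of genes (0.041) and array weights (0.022). Egfl7, a secreted regulator of vessel assembly, differed by 0.15 (interval -0.14 to 0.44).

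Ecscr, an endothelial surface protein that modulates cell migration and VEGF receptor signalling, showed the largest measured difference among the 29 blood vessel genes. Controls were at 7.61, 7.47 and 7.12 and cKO arrays at 7.95, 8.38 and 8.19. All cKO values exceeded all control values, and the difference was 0.77 (SE 0.17, 95% interval 0.37 to 1.18, 1.71-fold, limma adjusted p = 0.025). It was not called with any of 4 arrays left out, namely control 2 (adjusted p = 0.082), control 3 (0.083), cKO 2 (0.053) and cKO 3 (0.079).

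Receptors for VEGF showed no difference that passed the test. Kdr (VEGFR2), the main signalling receptor of blood vessels, was at 8.54, 8.63 and 9.0 in controls and at 8.96, 8.67 and 8.82 in cKO. The cKO values lay inside the control range, and the difference of 0.09 had an interval of -0.27 to 0.46. Flt1 (VEGFR1), which binds VEGF-A and placental growth factor, was at 7.16, 7.47 and 7.69 in controls and at 8.06, 7.45 and 7.58 in cKO, a difference of 0.26 (interval -0.22 to 0.73) in which cKO 1 alone exceeded the controls. Flt4 (VEGFR3), the lymphatic receptor for VEGF-C and VEGF-D, is described with the lymphatic genes.

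In the angiopoietin system, Tek (Tie2), the receptor itself, was at 7.72, 7.73 and 7.65 in controls and at 7.36, 7.92 and 7.65 in cKO, so that the cKO arrays fell on either side of the controls (difference -0.06, interval -0.42 to 0.31). Its co-receptor gene Tie1 was at 7.76, 7.84 and 7.93 against 8.08, 8.24 and 8.26. These groups did not overlap, and the difference of 0.35 (interval 0.08 to 0.62) did not pass (limma adjusted p = 0.087). Tie1 passed under 2 alternatives, leaving out the dimmer 50% of genes (0.029) and array weights (0.013). Angpt2, the ligand that endothelium releases when vessels remodel, was at background on all control arrays (6.18, 6.17 and 6.16) and at 6.82, 6.25 and 5.96 in cKO, where cKO 3 was also at background, so no fold is given. Angpt1, the ligand made by mural and mesenchymal cells, was at background on all 6 arrays.

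Eng, endoglin, a co-receptor for BMP9 and TGF-beta on endothelium, rose from 8.64, 8.77 and 8.75 to 9.11, 9.18 and 9.10. The 3 cKO values were close together and above all controls, with a difference of 0.41 (SE 0.11, 1.33-fold, limma adjusted p = 0.041). This call lay near the threshold: leaving out any 1 of the 6 arrays removed it (adjusted p = 0.13, 0.13 and 0.10 without controls 1 to 3, and 0.07, 0.065 and 0.11 without cKO 1 to 3), as did median centring (0.052). Robo4, the endothelial member of the Slit receptor family, had a difference of -0.09 (interval -0.43 to 0.25).

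The genes of the apelin and adrenomedullin receptors did not pass the test. Aplnr, the apelin receptor of growing veins, was at 8.70, 8.51 and 8.43 in controls and at 8.32, 9.49 and 9.13 in cKO. Arrays cKO 2 and cKO 3 were above all controls and cKO 1 was below them, so the difference of 0.43 (interval -0.22 to 1.09, limma adjusted p = 0.35) rose to 0.76 and passed without cKO 1 (0.031). Its ligand gene Apln, a marker of sprouting tip cells, was at 7.84, 7.74 and 7.97 in controls and at 8.01, 7.05 and 7.78 in cKO. Here cKO 2, the array with the highest Aplnr value, was the lowest, and the difference was -0.24 (interval -0.80 to 0.33). Calcrl and its partner Ramp2, which form the adrenomedullin receptor needed for lymphatic and blood vessel growth, both differed by 0.24 (intervals -0.09 to 0.57 and -0.07 to 0.55).

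**Figure D2:**
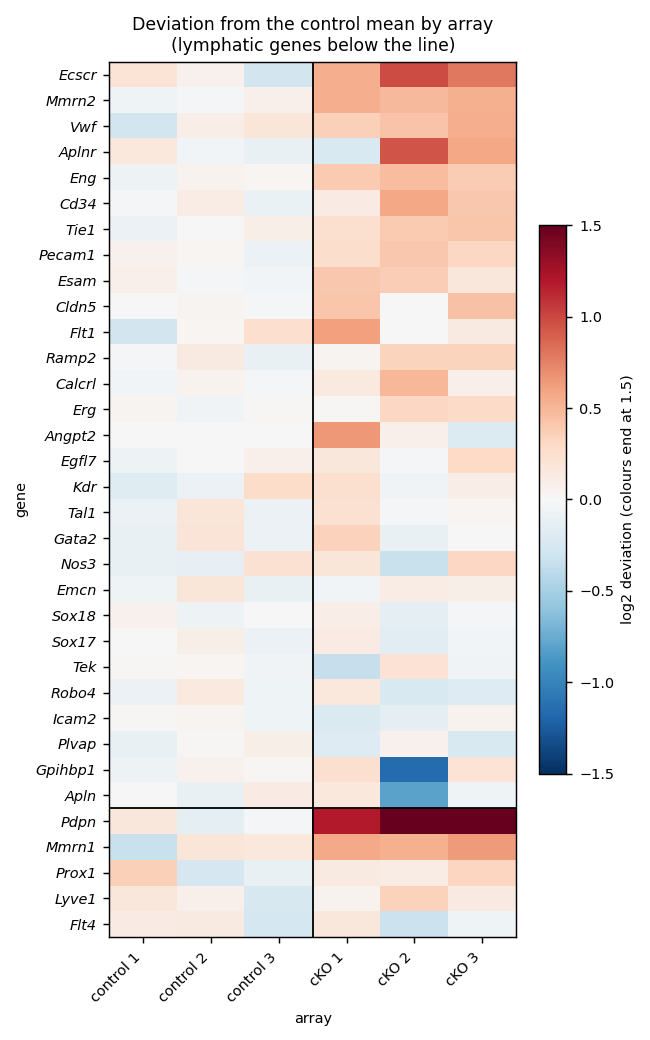
Deviation of each gene from its control mean (log2, colour) on 3 control and 3 cKO arrays, with blood vessel genes above the horizontal line and lymphatic genes below it, ordered by difference. Pdpn is high on all cKO arrays, Gpihbp1 and Apln are low on cKO 2 only, and Aplnr is high on cKO 2 and cKO 3.

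None of the endothelial transcription factor genes of the set passed the test. Erg, the ETS factor that maintains endothelial identity, differed by 0.21 (interval -0.08 to 0.49), and Sox17 and Sox18, which act in arterial and lymphatic specification, each by -0.02 (intervals -0.31 to 0.26 and -0.29 to 0.25). Tal1 and Gata2, which serve both endothelial and blood cell lineages, differed by 0.08 each (intervals -0.23 to 0.39 and -0.29 to 0.45). Of the markers of blood lineages that share these factors, 0 of 3 measured erythroid and 0 of 6 mast cell genes were called. Their summed levels (log2 of the sum over the list) ran from 8.36 to 8.59 in controls and 8.23 to 8.36 in cKO for the erythroid list, and from 8.36 to 8.64 and 8.66 to 8.71 for the mast cell list. Many of these markers were not above background: Ms4a2, Tpsb2, Cma1 and Fcer1a of the mast cell list and Epb42 of the erythroid list on all 6 arrays, and the mast cell gene Cpa3 on 4. Only Kit of the mast cell list and 2 genes of the erythroid list were above background on all arrays. Kit was also the only 1 of the 6 mast cell genes with a higher cKO mean. Its difference was 0.46 (interval 0.15 to 0.77) and did not pass (limma adjusted p = 0.063). Nos3, endothelial nitric oxide synthase, differed by 0.05 (interval -0.41 to 0.51).

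Of the 5 lymphatic genes, 1 passed the test. Pdpn, podoplanin, a mucin-like membrane protein of lymphatic endothelium, was at 7.59, 7.27 and 7.39 in controls and at 8.61, 9.03 and 9.25 in cKO. All cKO arrays were at least 1 log2 unit above every control, and the difference was 1.55 (SE 0.18, 95% interval 1.12 to 1.98, 2.92-fold, limma adjusted p = 0.0026). It passed under all 15 alternatives tried, with adjusted p of 0.00022 to 0.018. Mmrn1, multimerin-1, a matrix protein of lymphatic endothelium and of platelets, was at 6.60, 7.12 and 7.09 in controls and at 7.51, 7.47 and 7.58 in cKO. The groups were separate, with a difference of 0.58 (SE 0.16, interval 0.21 to 0.96) that missed the threshold by little (limma adjusted p = 0.053) and passed under 7 of 15 alternatives, among them all 3 other scalings of the arrays (median centring 0.028, quantile normalization 0.035, cyclic loess 0.036).

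The other lymphatic genes had overlapping groups. Lyve1, the hyaluronan receptor of lymphatic capillaries, was at 9.14, 9.05 and 8.73 in controls and at 9.03, 9.32 and 9.11 in cKO, a difference of 0.18 (interval -0.17 to 0.53). Prox1, the factor that specifies lymphatic identity, was at 6.37, 5.77 and 5.91 in controls and at 6.15, 6.13 and 6.34 in cKO, with controls 2 and 3 and cKO 1 at background (difference 0.19, interval -0.22 to 0.60). Flt4 was at 7.35, 7.37 and 6.97 in controls and at 7.4, 6.91 and 7.17 in cKO, a difference of -0.07 (interval -0.47 to 0.33).

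**Figure D3:**
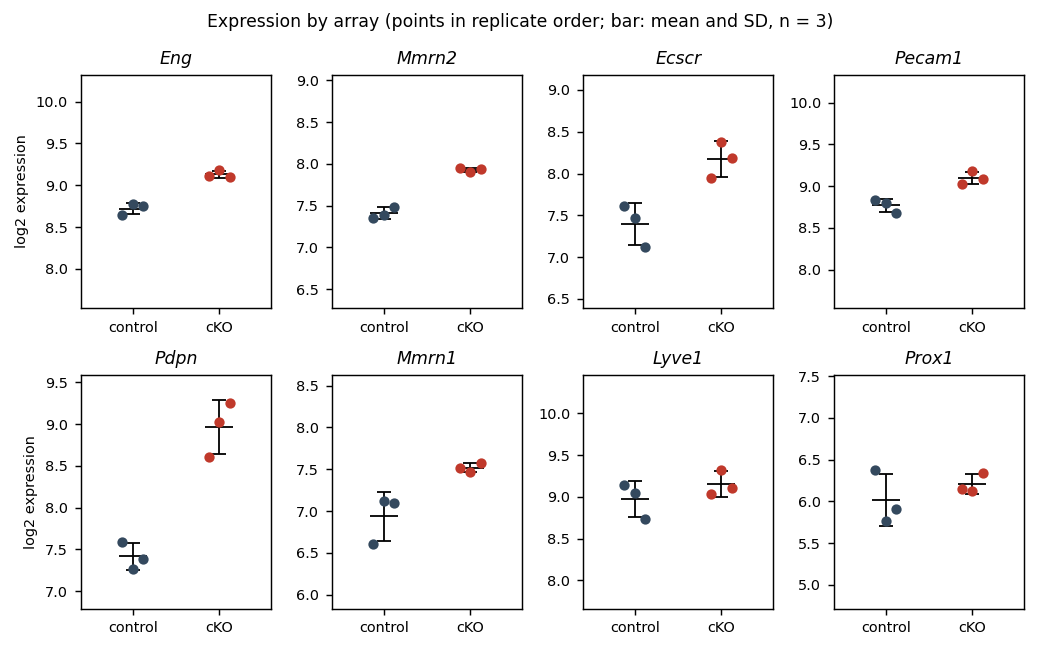
Log2 expression on each array for 4 blood vessel genes (upper row) and 4 lymphatic genes (lower row), with the mean and SD of 3 arrays per group as bars and the same axis length of 2.8 log2 units in every panel. The groups are separate for Eng, Mmrn2, Ecscr, Pecam1, Pdpn and Mmrn1 and overlap for Lyve1 and Prox1.

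Podoplanin, Lyve1, Prox1 and multimerin-1 are also made by cells other than lymphatic endothelium, so markers of those cells were read beside them. Fibroblasts and mesothelium carry podoplanin: 6 of 6 fibroblast markers rose, with Pdgfra at 1.23, Lum at 0.93, Dcn at 0.77 and Col1a1 at 0.62, and their summed level was 12.97 to 13.18 in controls and 13.60 to 13.86 in cKO. Only Pdgfra of the 6 was called with each array left out in turn: without control 2, and again without control 3, the other 5 lost the call, and the count fell to 1 of 6. The highest limma adjusted p in such cases was 0.077 for Lum, 0.067 for Dcn, 0.098 for Col1a1, 0.096 for Col1a2 and 0.15 for Col3a1. Of 5 mesothelium markers 3 rose, Msln (1.27), Lrrn4 (1.21) and Upk1b (1.03), with a summed level of 9.72 to 10.12 in controls and 10.27 to 10.94 in cKO. The others, Upk3b and Wt1, had overlapping groups above background, with differences of -0.03 (interval -0.49 to 0.43) and 0.16 (-0.23 to 0.55). Msln lost its call without control 3 (0.051) and Upk1b without any control, cKO 2 or cKO 3 (highest 0.14). Of 8 macrophage markers, a cell type that can carry Lyve1 and podoplanin, 6 rose, including Cd68 (1.05), C1qb (1.24), Adgre1 (1.22) and C1qc (1.03), and the summed level was 10.91 to 11.02 in controls and 11.60 to 11.98 in cKO. Of the 6, Mrc1 lost its call without control 3 (0.062), and Adgre1 was at background on 2 of the 3 controls. The macrophage marker Csf1r, above background on all arrays, had overlapping groups and was not called. It was at 9.10, 9.20 and 9.26 in controls and at 9.24, 9.35 and 9.52 in cKO (difference 0.18, interval -0.10 to 0.47). For Mmrn1, which platelets store, 0 of 4 measured megakaryocyte markers were called (summed level 8.52 to 8.57 against 8.58 to 9.10). One of them, Pf4, had all cKO values above all controls. Its difference of 0.58 (interval 0.11 to 1.05) equalled that of Mmrn1 and did not pass (limma adjusted p = 0.10). The cKO mean was the lower in 2 of the 4 markers, Gp9 by -0.41 (interval -0.98 to 0.16) and Itga2b by -0.02 (-0.32 to 0.28). For Prox1, which enteroendocrine cells and enteric neurons can express, 0 of 5 enteroendocrine markers were called, and 1 of 4 neuronal markers rose, Uchl1 at 0.65 (limma adjusted p = 0.029, and 0.12 at most with an array left out, the call being lost for all but control 1). Some markers were not above background, namely Ppbp of the megakaryocyte list and Neurod1 of the enteroendocrine list on all 6 arrays, the macrophage marker Cd163 on 5 and the megakaryocyte marker Itga2b on 4, so these counts say little about them. The part of these cells in the values of Pdpn, Lyve1, Mmrn1 and Prox1 was not tested.

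Blood vessel and lymphatic genes had nearly the same median difference, 0.17 over 29 genes and 0.19 over 5, a gap of 0.02. Without Pdpn the lymphatic median was 0.18. Of the blood vessel genes 3 rose and of the lymphatic genes 1 (6.81% of all genes were called higher). On single arrays the median deviation from the control mean was -0.04, 0.03 and -0.02 in controls and 0.18, 0.08 and 0.17 in cKO for blood vessel genes, and 0.17, 0.08 and -0.11 in controls and 0.17, 0.35 and 0.32 in cKO for lymphatic genes. The blood vessel medians of the cKO arrays thus all lay above those of the controls, whereas the lymphatic median of cKO 1 equalled that of control 1. Without control 1 the gap between both medians was 0.25, and with 5 lymphatic genes it was read as a description only.

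Another list of 24 endothelial genes outside the set was read beside these. Of the 24, 5 rose and 0 fell, with a median of 0.24: Rhoj, a regulator of endothelial cell migration, by 1.03 (SE 0.14, limma adjusted p = 0.0040), the ETS factor genes Ets1, Elk3 and Fli1 by 0.54, 0.49 and 0.47, and Thbd, thrombomodulin, by 0.47. Only Rhoj of these 5 remained called with each array left out. Fli1 was lost without any 1 array (0.051 to 0.16), Ets1 without control 1 (0.066), control 2 (0.098) or cKO 3 (0.069), Thbd without any control or cKO 3 and Elk3 without any control, cKO 2 or cKO 3 (highest adjusted p of 0.12 and 0.13). Cdh5, which encodes VE-cadherin, differed by 0.30 (interval 0.01 to 0.59, limma adjusted p = 0.16). Rhoj, Ets1, Elk3 and Fli1 are also made by mesenchymal or blood cells.

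Of 11 measured genes that further mark or pattern lymphatic vessels, 3 rose and 1 fell, with a median of -0.06. Itga9, the integrin subunit of lymphatic valves, rose by 0.95 (SE 0.12, limma adjusted p = 0.0036), and Nrp2, the neuropilin co-receptor for VEGF-C, by 0.92 (SE 0.13, adjusted p = 0.0052). Piezo1, a flow-sensing channel gene, rose by 0.60 and Maf, a transcription factor of several lineages, fell by 0.74, but Piezo1 was not called with control 1, control 2 or cKO 3 left out (highest adjusted p = 0.084), nor Maf with control 2, control 3 or cKO 3 left out (0.07). Itga9 and Nrp2 are expressed by smooth muscle or mesenchyme as well.

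Of 20 genes for vascular ligands and the proteins that process them, 3 rose and 1 fell, with a median of 0. Pgf, placental growth factor, a ligand of Flt1, was at 6.33, 6.12 and 5.98 in controls and at 7.49, 7.95 and 7.53 in cKO. Every cKO value was at least 1 log2 unit above every control, and the measured values differed by 1.51 (SE 0.16, limma adjusted p = 0.0020). Controls 2 and 3 were at background, so only 1 of the 3 controls measured the gene and this difference is not an exact fold. The guidance ligand genes Slit3 and Slit2 rose by 1.17 (SE 0.12) and 0.85 (SE 0.11, controls 2 and 3 at background). Adamts3, the protease that activates VEGF-C, differed by -0.45 through its brightest of 16 probe sets (adjusted p = 0.039) and by 0.01 as their mean (0.96), and its call was lost without any 1 array (0.054 to 0.15). Vegfa, the main ligand of Kdr, differed by -0.18 (interval -0.72 to 0.35) and Adm, adrenomedullin, by 0.55 (interval -0.01 to 1.10). Vegfc, the ligand of Flt4, differed by -0.29 (interval -0.61 to 0.02), with all cKO values below all controls. It did not pass (limma adjusted p = 0.20) but did under 1 of 15 alternatives, array weights (0.018). The higher Pgf was thus seen beside Flt1, Kdr and Vegfa values that did not pass the test.

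**Figure D4:**
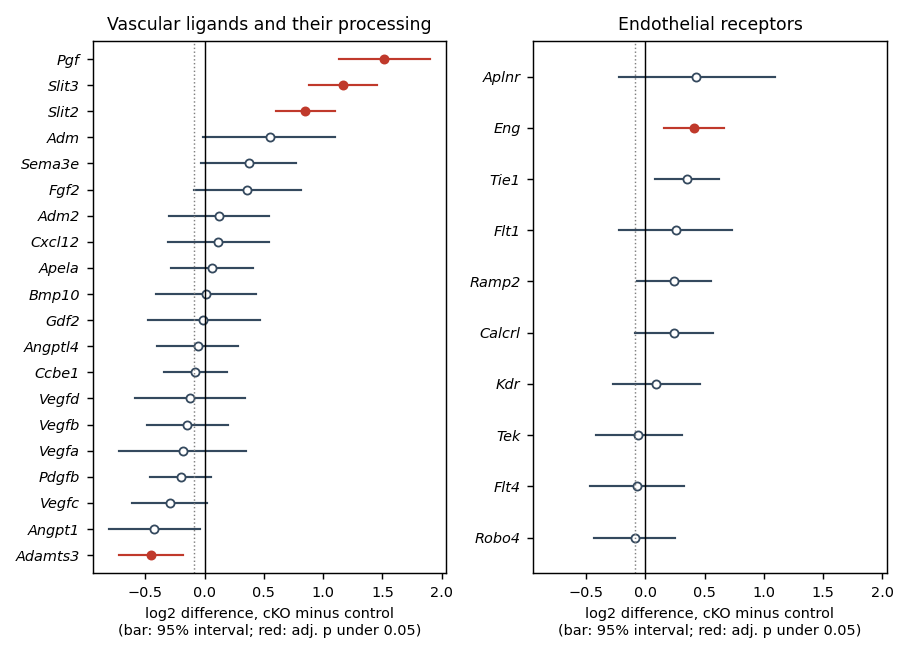
Difference in log2 expression, cKO minus control, with 95% intervals, for 20 vascular ligand and ligand-processing genes (left) and 10 endothelial receptor genes of the set (right), 3 arrays per group. Filled red points passed the threshold over all genes. Pgf, Slit3 and Slit2 lie at 1.51, 1.17 and 0.85 and Adamts3 at -0.45 (0.01 as the mean of its probe sets), while of the receptors only Eng at 0.41 passed. Pgf and Slit2 were at background on 2 of the 3 controls.

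Arterial, venous and Notch pathway genes included 3 of 14 that rose and 0 that fell, with a median of 0.24. These were Gja5, the arterial connexin-40, by 0.61, Efnb2, the arterial ephrin, by 0.48 and Nrp1, the neuropilin co-receptor for VEGF-A, by 0.53, and each was lost without any 1 control, cKO 2 or cKO 3 (highest limma adjusted p = 0.13, 0.15 and 0.15). Dll4, the Notch ligand of tip cells, differed by -0.08. Unc5b had the largest difference of these 14 genes in either direction, -0.87 (interval -1.53 to -0.21). Its cKO values all lay below its control values, but it did not pass (limma adjusted p = 0.088), and it passed under 6 of 15 alternatives. The cKO mean was the higher in 10 of the 14 genes, against 38.5% of all genes, a share not recomputed without cKO 2. Of 7 measured genes of activated endothelium 2 rose. Edn1, endothelin-1, went from 6.32, 6.36 and 6.25 to 7.68, 8.25 and 8.06, a difference of 1.69 (SE 0.16, limma adjusted p = 0.0013) with control 3 at background, and the leukocyte adhesion gene Icam1 rose by 0.53, a call that failed with control 2, control 3, cKO 1 or cKO 3 left out (highest adjusted p = 0.11). Epithelial cells can express both. Sele, the E-selectin gene, which marks inflamed endothelium more narrowly, was at background on all 6 arrays.

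Markers of the cells around vessels had larger median differences than the endothelial genes. Of 9 pericyte markers 6 rose, with a median of 0.99: Kcnj8 and Abcc9, subunits of the pericyte potassium channel, both by 1.22, Pdgfrb, the receptor that draws pericytes to vessels, by 1.02 and Mcam by 1.0. Cspg4, also among the 6, lost its call without any array other than cKO 2 (highest limma adjusted p = 0.16). All 6 of 6 smooth muscle markers rose (median 0.87), including Des at 1.35 and Cnn1 at 1.23, and smooth muscle expresses several of the pericyte markers. Acta2 lost its call without any 1 control or cKO 3 and Myh11 without control 2, control 3 or cKO 3 (highest limma adjusted p = 0.13 and 0.076), so 4 of 6 were called without control 2, control 3 or cKO 3. Of 7 epithelial markers 2 fell, Cdx2 by 0.79 and Cdx1 by 0.60, with a median of -0.31, and Cdx1 lost its call without any 1 control or cKO 3 (highest adjusted p = 0.085). The other epithelial markers differed less and did not pass. Epcam, Cdh17 and Cldn7 had overlapping groups, with differences of -0.10, -0.15 and -0.23. Vil1 and Lgals4 each differed by -0.31, with all cKO values below all controls. The summed level of the 29 blood vessel genes was 12.81 to 12.87 in controls and 13.02 to 13.06 in cKO. That of the pericyte list was 10.90 to 11.04 in controls and 11.82 to 11.99 in cKO, and that of the epithelial list 14.09 to 14.32 and 13.92 to 13.96. Whether the differences in these other markers bear on the small endothelial differences was not tested.

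**Figure D5:**
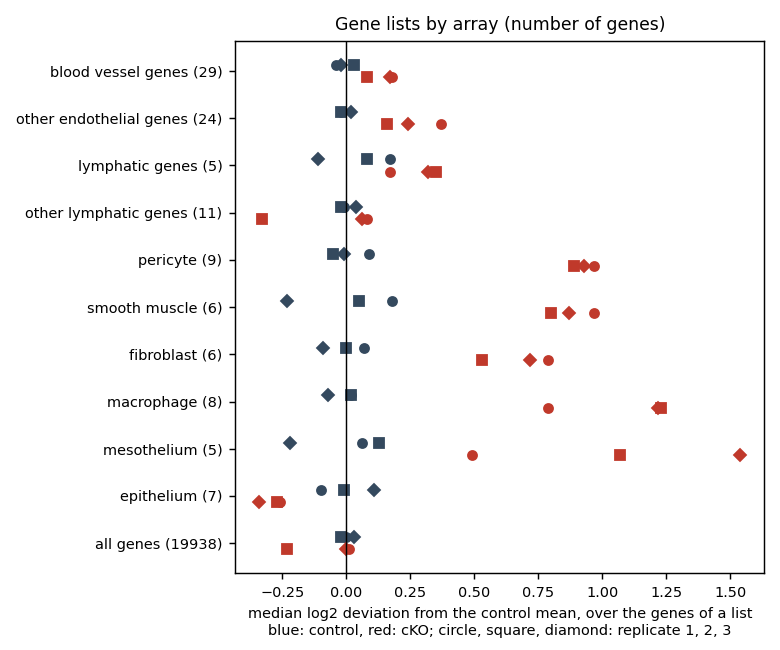
Median log2 deviation from the control mean over the genes of each list, for 3 control arrays (blue) and 3 cKO arrays (red), with marker shapes for the replicate number. The blood vessel medians of the cKO arrays lie at 0.08 to 0.18, those of pericyte markers at 0.89 to 0.97 and those of epithelial markers at -0.34 to -0.26.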

How the data were processed

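The authors analysed the arrays with dChip, per the series design text, and deposited 1 value per probe set and array, read here as log2 because the values run to about 14. The background correction, the normalization and the version of dChip were not given in the sources used. The 35512 probe sets were matched to the platform annotation (21789 with 1 symbol, 1621 with several, 12102 with none listed). Symbols were updated by gene identifier (GRCm38.p6), and the brightest probe set stood for each of 19938 genes.

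Deposited values were used unchanged and tested with limma 3.58.1 (R 4.3.3; lmFit, eBayes, two-sided, no covariate), with Benjamini-Hochberg adjustment over all genes at 0.05; the code was checked on simulated data. Members and gene lists were chosen with earlier results of these data known, and lists were described by counts and medians without a test. Values on each array are given for members that passed, the 5 lymphatic genes and a fixed set of receptors, ligands and junction genes, as well as for others where single arrays or separate groups mattered, chosen after their values were seen. Of other lists, up to 4 genes with the smallest p, and all called genes where 5 or fewer were called, are named, and a few uncalled ligands and markers of interest were added after their values were seen. Of 150 such symbols 139 were measured. Alternatives covered scaling, dim genes, the variance model, weights, a replicate block, the probe set rule and each array left out. The number of arrays limits precision.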

Additional observations from a re-analysis of the deposited data

How the results depend on the processing

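The direction of the blood vessel and lymphatic medians held under all 15 alternatives. Over the 34 genes, 4 were called as reported, 9 without the dimmer 50% of genes (28 genes left), 9 with array weights and 2 with the replicate block. With 1 array left out 1 to 4 were called, and 0 were called lower in any setting. Of all genes tested, 14.2% were called as reported, 33.2% without the dimmer 50%, 29.3% with array weights and 11.1% with the replicate block. With 1 array left out this share was 6.15% to 13.6%, so the counts of the set moved along with those of all genes. For blood vessel genes, 3 were called as reported, 7 without the dimmer 50%, 7 with array weights, 1 with the replicate block and 0 to 3 with 1 array left out. For lymphatic genes, 2 were called against 1 with quantile normalization, median centring, cyclic loess, an intensity trend, array weights or without the dimmest 25% or dimmer 50% of genes, and 1 in each case with 1 array left out. The blood vessel median was 0.27 with median centring, 0.23 with cyclic loess and 0.24 without the dimmer 50% (24 genes left), and 0.10 to 0.19 with 1 array left out. The lymphatic median was 0.30 with quantile normalization or cyclic loess, 0.29 with median centring, 0.38 without the dimmer 50% (4 genes left, Prox1 removed) and 0.36 with array weights, and 0.14 to 0.37 with 1 array left out. Their gap ran from -0.05 to 0.25 with 1 array left out. Of all genes 2825 were called, 5834 with array weights and 1226 to 2713 with 1 array left out, and of the other lists' genes 48, 75 with array weights and 26 to 47 with 1 array left out. Adamts3 turned to 0.01 as the mean of its probe sets. Causes of these shifts were not tested.

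Same-numbered arrays were not treated as pairs: the correlations of their deviations were -0.08, 0.13 and 0.14, and 1 of 3 control arrays correlated best with its own number. With the replicate block, 2 genes of the set were called, Ecscr and Pdpn, while Eng (0.11) and Mmrn2 (0.057) were not.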

Other observations

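Receptors for 2 groups of ligands that rose were read as well, chosen after the ligand values were seen. Of 4 further endothelin genes looked up, 3 were measured. Ednrb, the receptor of endothelium, enteric neuron precursors and mesenchyme, rose by 0.68 (SE 0.13, limma adjusted p = 0.014), from 9.64, 9.66 and 9.81 to 10.53, 10.20 and 10.43. Ece1, the endothelin-converting enzyme, differed by -0.05 and Edn3 by 0.19 (adjusted p = 0.84 and 0.40). Among Slit receptors, Robo2 rose by 0.78 (SE 0.14, adjusted p = 0.011), from 7.29, 7.03 and 7.10 to 8.11, 7.90 and 7.75, and Robo1 differed by 0.25 (adjusted p = 0.32), beside the endothelial Robo4 at -0.09. The alternatives, including each array left out, were not run for Ednrb, Ece1, Edn3, Robo1 and Robo2.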
